A study of Homo sapiens with 6 samples.

Results

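The early response of chromatin to added HMGA1 was measured as the difference in accessibility between A375 cells given recombinant HMGA1 for 2 h and untreated (mock) cells. All regions of the authors' deposited table for that pair were taken, with 1 entry per region, which gave 226806 of the 226920 regions found in any table of the series. A375 is an established human melanoma line, and every group was made from it. The assay was ATAC-seq, in which the Tn5 transposase cuts open DNA, and each of the 3 groups (mock, 2 h and 18 h of recombinant HMGA1) had 2 libraries that the labels call biological replicates. Cells had been frozen alive and were thawed, and libraries were made by a sequencing provider for all groups alike. The labels call the tissue skin. They give neither the dose nor the source of the protein, and mock samples carry the treatment label untreated. Whether the 2 libraries of a group came from separate cultures was not stated. The p-values therefore reflect how far libraries of a group differ, which may be technical. A single fit may have covered all 6 libraries, so that the 18 h libraries also enter the p-values of 2 h against mock. The tables hold 1 mean signal per region over all 6 libraries (normalized reads) and no value for a single library, so the spread between libraries enters only through the deposited standard error (SE), and the depth of each library is unknown.

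HMGA1 is an architectural chromatin protein. Through its AT hooks it contacts AT-rich stretches in the minor groove, where it bends DNA and competes with linker histone, and it is abundant in embryonic and tumour cells. Chromatin opens at gene starts and at enhancers, and in ATAC-seq the level of a region reports how often the transposase could cut there.

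A region was tested where its mean signal passed the limit of 56.2 that the deposited adjusted p-values show, which left 86137 regions, and it was called where the adjusted p was under 0.05 (DESeq2, by the authors). Of those tested, 737 rose (0.856%) and 363 fell (0.421%) after 2 h, together 1.28%. Per the authors' deposited table, the median log2 fold change of all tested regions was -0.06 and 62.2% of them lay below 0, so the zero of the scale was not the middle of the data. Shifting every region by that median gave 1179 higher (1.37%) and 198 lower (0.23%) calls. Shifting within 20 bins of mean signal gave 1249 higher (1.45%) and 173 lower (0.201%), so that the higher share of all calls went from 67.0% to 87.8%. All 737 higher calls and 170 of the 363 lower calls were kept within bins. That shift raised most values, so higher calls could hardly be lost. Lower calls that were lost within bins are named as such below, and list counts that turn are given both ways.

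**Figure D1:**
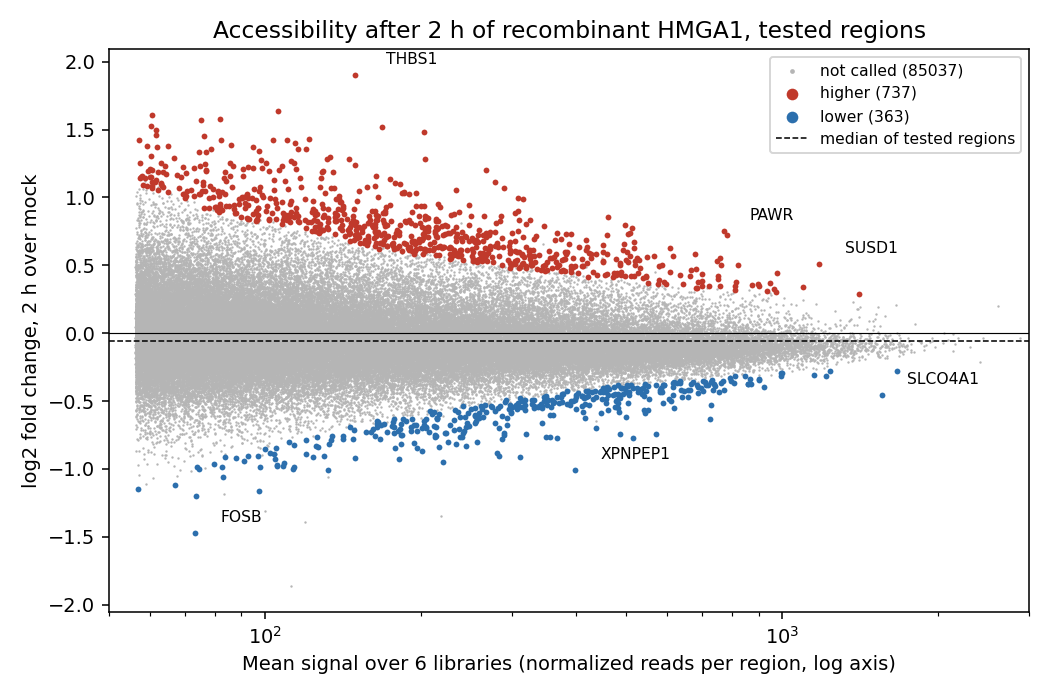
Log2 fold change of 2 h over mock (vertical) against mean signal over 6 libraries (horizontal, log axis) for the tested regions, 1 point per region, restricted to the range shown on the axis. Red points are the 737 higher and blue points the 363 lower calls, and the dashed line is the median of tested regions at -0.06. The threshold for a call narrows from left to right, and blue points are rare at low signal.

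Only some markers of the labelled cell type had a start region under their own name. Start regions (within 1 kb of the gene start) were found for 4 of 10 melanocyte markers: MITF, the lineage factor, had a mean signal of 694, S100B 353, PAX3 302 and SOX10 63.8, against a median of 335 over all 13760 start regions. The pigment genes PMEL, MLANA, TYR, TYRP1 and DCT, and TFAP2A, had none under their names. Each region was kept under 1 gene name, so a start without a named region need not be closed. Start regions were found for 3 of 6 keratinocyte, 5 of 7 fibroblast, 1 of 6 endothelial and 2 of 6 immune markers, with signals from 21.2 to 69.4 apart from PDGFRB at 448, KDR at 197 and LYZ at 210. No tested start region among these markers was called at 2 h in the authors' deposited table.

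The gene starts that did change are shown first as sequence, because they are the few called regions for which a promoter sequence was at hand. RefSeq (GRCh38.p14) gave 22199 windows of the 250 bases before starts of protein-coding genes, and a gene can have several. Windows were matched by position. With repeats of the same gene and region left out, 9925 overlapped a tested region by at least 125 bases. The windows of 6 genes lay in regions that rose and those of 9 genes in regions that fell. The sequences below run from 5′ to 3′ toward the gene start, and capitals mark matches on either strand to any of 6 short motifs: TGANTCA, the AP-1 core; GGAATG, the TEAD core; TGATGNAA, the ATF4 composite core. Of the AT-rich strings the first was AATATT, the next was AAATTT and the last was TATATA. The first 4 windows lay in regions that rose and the last 2, KCND1 and TUBA1A, in regions that fell.
ANKRD1, chr10:90921088-90921337, minus strand: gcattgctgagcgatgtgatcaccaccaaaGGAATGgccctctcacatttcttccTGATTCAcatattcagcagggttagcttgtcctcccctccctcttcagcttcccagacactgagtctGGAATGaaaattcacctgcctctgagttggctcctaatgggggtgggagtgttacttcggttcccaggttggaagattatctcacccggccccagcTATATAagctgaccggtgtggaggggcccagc
DDAH1, chr1:85578201-85578450, minus strand: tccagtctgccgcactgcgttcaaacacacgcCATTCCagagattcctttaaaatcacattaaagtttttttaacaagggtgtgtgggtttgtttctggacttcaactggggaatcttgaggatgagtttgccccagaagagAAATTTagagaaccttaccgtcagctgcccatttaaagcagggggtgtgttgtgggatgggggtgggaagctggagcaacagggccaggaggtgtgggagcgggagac
FAM186A, chr12:50396610-50396859, minus strand: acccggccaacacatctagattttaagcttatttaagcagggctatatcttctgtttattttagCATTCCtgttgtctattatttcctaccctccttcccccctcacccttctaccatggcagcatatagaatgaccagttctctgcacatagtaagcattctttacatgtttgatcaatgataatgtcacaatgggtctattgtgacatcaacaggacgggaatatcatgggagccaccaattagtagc
AMIGO2, chr12:47079960-47080209, minus strand: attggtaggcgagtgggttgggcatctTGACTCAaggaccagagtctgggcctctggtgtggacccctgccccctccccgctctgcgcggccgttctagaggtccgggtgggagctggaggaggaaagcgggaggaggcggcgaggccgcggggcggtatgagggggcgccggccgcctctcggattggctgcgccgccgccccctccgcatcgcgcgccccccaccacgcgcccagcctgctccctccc
KCND1, chrX:48971845-48972094, minus strand: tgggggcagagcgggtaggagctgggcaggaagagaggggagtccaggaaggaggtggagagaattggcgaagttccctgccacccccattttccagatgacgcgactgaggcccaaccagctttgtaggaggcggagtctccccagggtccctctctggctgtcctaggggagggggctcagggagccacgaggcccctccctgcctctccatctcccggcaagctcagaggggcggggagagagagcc
TUBA1A, chr12:49189081-49189330, minus strand: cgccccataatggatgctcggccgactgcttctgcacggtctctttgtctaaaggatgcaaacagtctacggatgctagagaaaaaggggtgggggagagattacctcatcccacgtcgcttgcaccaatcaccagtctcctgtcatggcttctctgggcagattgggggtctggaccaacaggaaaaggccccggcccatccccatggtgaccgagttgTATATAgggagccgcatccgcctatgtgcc
The ANKRD1 window held 1 match to the AP-1 core, 2 to the TEAD core and 1 to TATATA. ANKRD1 encodes a nuclear ankyrin-repeat protein and is a widely used readout of YAP and TEAD activity. The DDAH1 window held 1 match to the TEAD core and 1 to AAATTT, that of FAM186A 1 to the TEAD core and that of AMIGO2 1 to the AP-1 core. The other windows in regions that rose, LIMA1 and NPLOC4, held 1 TEAD core and 1 AP-1 core. The 6 windows in regions that rose held TGANTCA or GGAATG, as did 2 of the 9 in regions that fell (TOB1 and RGS8), against 12.9% of the windows over tested regions and 15.1% of all windows. After centring within bins 8 of 10 windows in higher regions held one, and of the 9 lower windows KCND1 and RAPGEF4 alone kept the call. The 6 motifs had been planned singly and not as this pair, so the shares with either motif are no support for AP-1 or TEAD. Single motifs were found in 5.36% (AP-1 core), 10.5% (TEAD core), 2.35% (ATF4 composite core), 4.38% (AATATT), 5.29% (AAATTT) and 3.07% (TATATA) of all windows. The TUBA1A window held 1 TATATA and that of KCND1 none of the 6 motifs. These counts are small and describe letters in a window, not binding. Over all tested windows the median log2 fold change was -0.10 with either motif and -0.11 without, per the authors' deposited table.

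Base composition, the property HMGA1 is known to read, was set against the change at these 9925 windows. The median log2 fold change in 5 equal groups by A and T content, from the fewest to the most A and T, was -0.12, -0.11, -0.11, -0.10 and -0.11 in the authors' deposited table. Across windows Pearson's r between A and T content and log2 fold change was 0.07, and 0.05 after centring within bins of mean signal. It is a description over windows that share libraries. Of the 6 windows in regions that rose, 5 lay in the group with the most A and T (42.4% to 69.2%), the exception being AMIGO2 at 26.8%. That group also held 3 of the 9 in regions that fell. The base composition of regions away from gene starts was not analysed here.

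Most of the change lay far from gene starts. Within 1 kb of a named start, overlap included, 9 regions rose and 12 fell, which became 16 higher and 5 lower after centring within bins. Of the regions that overlapped a start, 3 of 8727 rose (0.0344%), and the share rose with each step of distance to 0.953% at 10 to 100 kb, 1.22% in the next range out and 1.70% (66 of 3889) in the farthest, from 500 kb on. Lower calls went from 0.0688% over starts to 0.603% at 100 to 500 kb and were 0.36% beyond that. Start regions have more signal, so they were also compared at like signal. In the 3 highest deciles of mean signal, 3 of 8815 regions within 1 kb rose and 10 fell, against 258 and 238 of 17026 regions farther away. Centring within bins turned these counts to 10 higher and 3 lower near starts, and to 577 and 81 farther away. In deciles 4 to 7 the counts were 5 and 1 of 2622 near starts, and 363 and 103 of 31833 elsewhere. These are counts over regions, which are not replicates.

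The side of the gene was read for regions whose named gene had both a RefSeq position and a strand at hand, which left out some genes, such as HMGA2. Beyond 1 kb, 0.873% of the 27955 regions inside the span of the named gene rose, against 1.07% of the 18969 upstream and 1.23% of the 10369 past its end, and 0.483%, 0.438% and 0.473% fell.

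The smallest change that could be called depended on the signal. The median SE fell from 0.308 in the lowest decile of mean signal to 0.0994 in the highest, and the smallest log2 change that was called, in either direction, went from 1.06 to 0.28. Higher calls were most frequent in the decile with signals from 178 to 240 (124 of 8614, 1.44%), whereas lower calls were most frequent in the decile from 340 to 514 (95 of 8614, 1.10%). After centring within bins the higher calls peaked at 212 in the decile from 240 to 340 and the lower ones at 35 in that from 178 to 240, so the order of the peaks depends on the zero of the scale. In the lowest decile 35 regions rose and 1 fell. The median log2 fold change itself went from 0.01 in the lowest decile to -0.10 in the highest in the authors' deposited table.

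**Figure D2:**
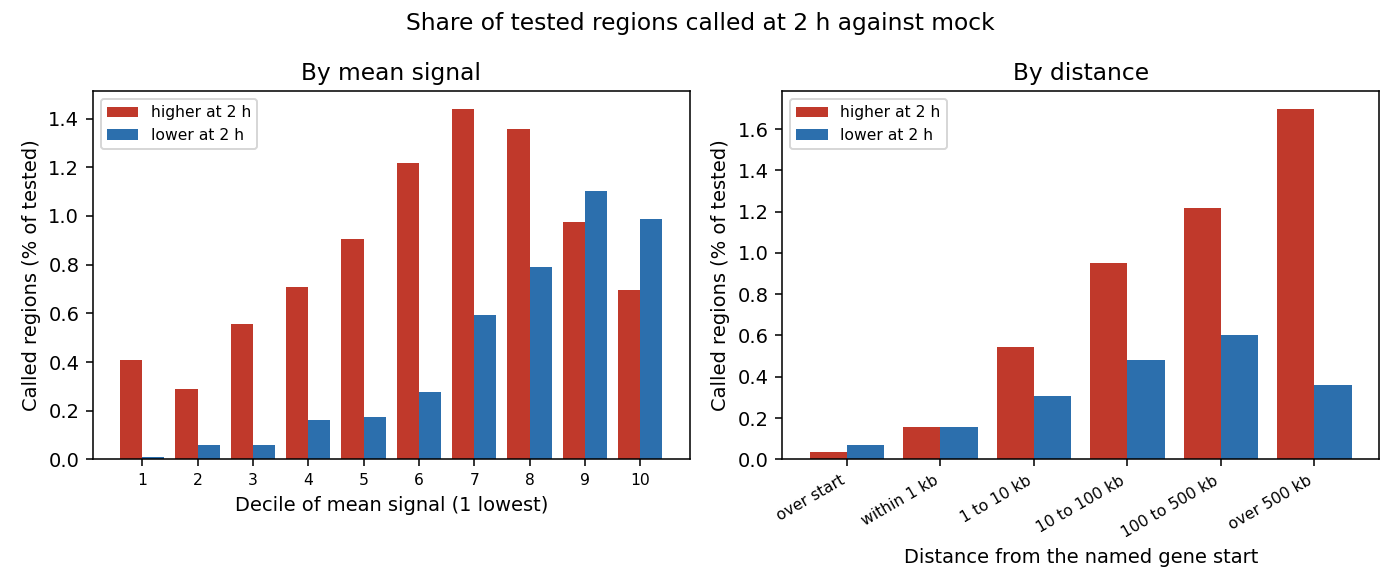
Percent of tested regions called higher (red) and lower (blue) at 2 h against mock, by decile of mean signal (left) and by distance from the named gene start (right). Higher calls peak at 1.44% in the decile of 178 to 240, and by distance they reach 1.70% in the farthest range against 0.0344% over starts.

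The regions near gene starts that rose belong to genes of several kinds, and each was called lower in the test of 18 h against 2 h. That test shares the 2 h libraries, and the regions were picked for a high 2 h value, so it cannot by itself show a return. GJA5 encodes a gap junction connexin. Its region, 0.2 kb from the named start, had 1.09 ± 0.20 (SE; adjusted p = 5.55e-05, DESeq2) at 2 h and -0.18 at 18 h against mock in the authors' deposited table. By RefSeq the same region lies 12.3 kb into the gene, counted to its centre. DDAH1, an enzyme that degrades asymmetric dimethylarginine, stood at 0.84 ± 0.18 at 2 h and -0.23 at 18 h in the authors' deposited table. For FAM186A the same pair of values was 0.75 ± 0.17 and -0.26, for PDCD1LG2, which encodes a ligand of the PD-1 receptor, 0.74 ± 0.15 and -0.10, and for ANKRD1 0.72 ± 0.15 and -0.14. C18orf63 had 1.16 ± 0.29 at a mean signal of only 67.7, ACSM6 0.79 ± 0.21, ANXA3, an annexin gene, 0.68 ± 0.19 and PCED1B 0.44 ± 0.12 in the authors' deposited table. The PCED1B region also covers most of the AMIGO2 window printed above, so that call has no single gene.

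Of the 12 start regions that fell, 5 kept the call after centring within bins. These were MBNL2, a splicing regulator, at -1.002 ± 0.28, SLC7A5 at -0.76 ± 0.13, the potassium channel gene KCND1 at -0.68 ± 0.19, FXYD3, a regulator of the sodium pump, at -0.63 ± 0.11 and SHROOM4, an actin regulator, at -0.50 ± 0.12 in the authors' deposited table. The other 7 (NR2F6, ZNRF1, MYADM, TUBA1A, SHISA4, DENND4C and UBALD2) had values from -0.45 to -0.28 and lost it. Their mean signals ran from 475 to 1235, and start regions as a whole had a median of -0.11 in the authors' deposited table.

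THBS1 had the largest block of change. Thrombospondin-1 is a secreted matrix glycoprotein that binds cell-surface receptors and can activate latent TGF-beta. On chromosome 15 (hg38, 39585305 to 39599713), 13 of 13 tested regions over 14.4 kb rose. The region over the start had a log2 fold change of 0.10 ± 0.09 and the next one, 2.65 kb into the gene, 0.70 ± 0.21 (adjusted p = 0.058, DESeq2) in the authors' deposited table. Further in, the regions at 4.21, 5.37 and 6.92 kb had 1.10 ± 0.30, 0.87 ± 0.20 and 1.28 ± 0.30, those at 8.61, 10.1 and 11.3 kb 1.42 ± 0.25, 1.43 ± 0.37 and 1.43 ± 0.23, and those at 12.4 and 13.3 kb 1.35 ± 0.23 and 1.34 ± 0.25 in the authors' deposited table. At 14.7, 15.2, 16.6, 17.6 and 18.1 kb the authors' deposited table gave 1.64 ± 0.24, 1.57 ± 0.28, 1.90 ± 0.21, 1.48 ± 0.19 and 1.52 ± 0.21. The 5 highest values of the block were thus the 5 nearest the end of the gene. Signal in the block was modest, from 63.0 to 203, against 903 at the start. Upstream of the start, 0 of 30 tested regions named for THBS1 were called, and in the authors' deposited table they lay between -0.31 and 0.95.

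SLC7A5 encodes the light chain of a transporter of large neutral amino acids. Its higher regions also lay toward the end of the gene and past it: 10 of 14 tested regions over 22.5 kb rose (chromosome 16, 87823907 to 87846433), with log2 fold changes from 0.92 to 1.52 in the authors' deposited table. The other 4 in that stretch ranged from 0.70 to 1.05 and missed the threshold, with signals from 57.0 to 84.2. Between the start and this stretch the pattern was mixed. The authors' deposited table gave 0.59 ± 0.10 (adjusted p = 2.04e-05, DESeq2) at 1.04 kb upstream of the start, 0.24 ± 0.13 at the start, -0.76 ± 0.13 (adjusted p = 1.41e-05, DESeq2) at 0.803 kb into the gene and -0.05 ± 0.11, 0.93 ± 0.31, -0.21 ± 0.10, 0.42 ± 0.18 and -0.27 ± 0.10 at 8.47, 10.4, 14.9, 19.0 and 20.9 kb. Signals at these sites were 678 upstream, 406 at the start, 356 at 0.803 kb and 534, 65.9, 851, 179 and 740 at the others in the same order. Of all these, the sites 1.04 kb upstream and 0.803 kb into the gene were the ones called.

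Accessibility across whole gene bodies was then ranked, a summary chosen after values had been seen. In 2192 genes with at least 5 tested regions inside the span and beyond 1 kb of the start, the gene medians had a middle value of -0.04 and a central 95% from -0.25 to 0.22. In 8 genes the median passed 0.5 and in 0 it lay under -0.5. Among them, after THBS1 (1.42) and SLC7A5 (0.97), were the cyclin gene CCND1 (0.74, 7 regions), the cytolinker gene PLEC (0.63, 18 regions), TOR3A (0.61, 5 regions), the receptor kinase gene AXL (0.61, 5 regions) and the retinaldehyde dehydrogenase gene ALDH1A3 (0.60, 13 regions). Few of their regions passed the test one by one: 3 of ALDH1A3, 1 each of CCND1, PLEC and AXL and 0 of TOR3A. At the starts of CCND1, AXL, ALDH1A3 and TOR3A the authors' deposited table gave 0.04 ± 0.11, 0.12 ± 0.10, 0.03 ± 0.12 and -0.08 ± 0.08.

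**Figure D3:**
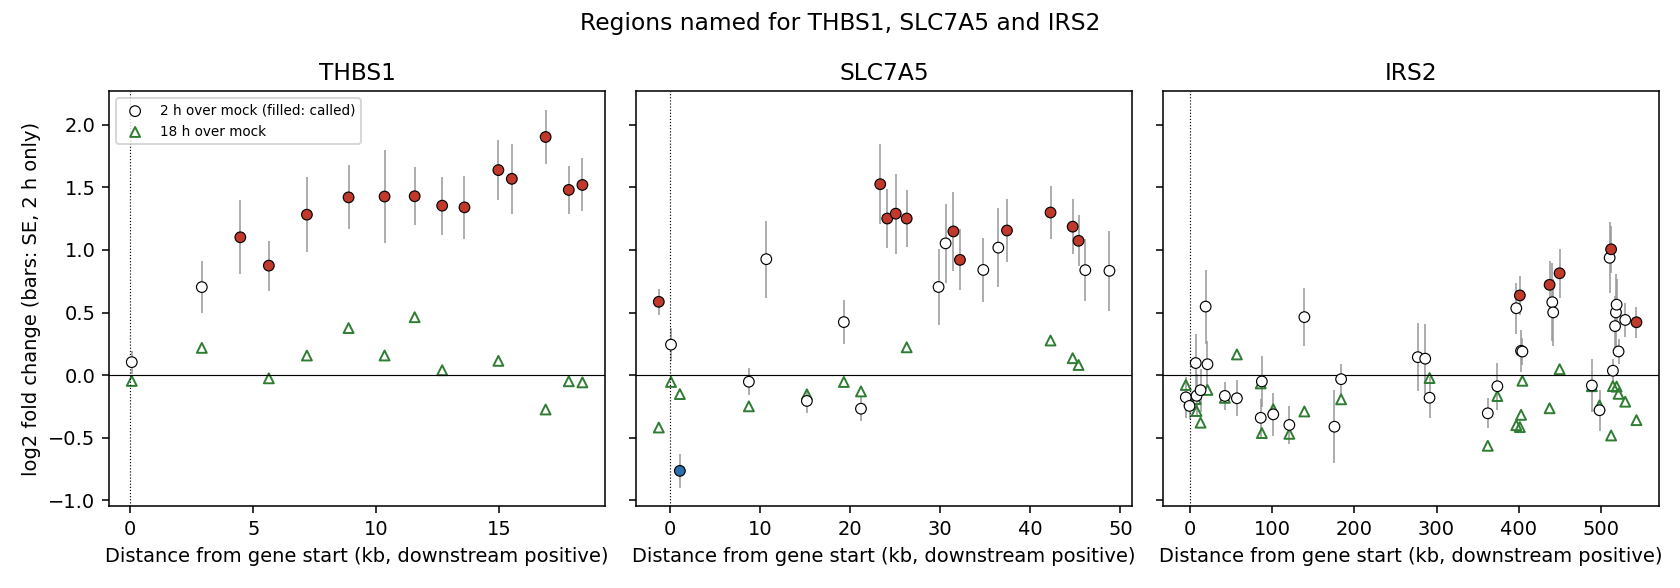
Log2 fold change against distance from the gene start (kb, downstream positive) for the tested regions named for THBS1, SLC7A5 and IRS2. Circles are 2 h over mock with SE bars (red or blue where called, open where not) and green triangles are 18 h over mock where tested. The THBS1 regions lie between 0.87 and 1.90 from 4.21 kb on while the start region is at 0.10. The triangles of that THBS1 stretch lie from -0.27 to 0.46. Some triangles of the other genes lie lower, down to -0.42 at SLC7A5 and -0.56 at IRS2.

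Other genes with many calls differed in layout. Their tested regions numbered 51 for IRS2, 54 for MYC, 32 for USP24 and 39 for EXT1. The numbers were 16 for KLF13, 15 for GAB2, 58 for KCNMA1 and 56 for TENM2. Of all tested regions 0.856% were called higher and 0.421% lower, and a gene with more regions has more room for calls. IRS2, an adaptor of insulin and IGF receptors, had 5 higher regions, all 401 to 543 kb downstream of its start, with 0.64 ± 0.16, 0.72 ± 0.19, 0.81 ± 0.20, 1.01 ± 0.19 and 0.42 ± 0.12 from the nearest to the farthest in the authors' deposited table. MYC, a growth-promoting transcription factor, had 4 higher regions at 373 to 579 kb, from 0.38 to 1.23, and USP24, a deubiquitinase gene, 4 at 358 to 612 kb, from 0.51 to 0.90, in the authors' deposited table. EXT1, which encodes a polymerase of heparan sulfate chains, had 4 higher regions at 90.3 to 264 kb, from 0.68 to 0.99 in the authors' deposited table. KLF13, a zinc-finger factor, had 4 lower regions, from -0.98 to -0.39 in the authors' deposited table, of which 1 kept the call after centring within bins. Both directions occurred around the adaptor gene GAB2 (1 higher, 3 lower), the potassium channel gene KCNMA1 (3 and 1) and TENM2, a teneurin gene (3 and 1, the lower one lost within bins). At GAB2 the higher region, at 52.0 kb (0.50 ± 0.12), and a lower one at 77.8 kb (-0.77 ± 0.16) lay in the same gene body in the authors' deposited table. Of the 116 gene names with at least 2 calls, 90 had 1 direction and 26 had both.

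Calls were otherwise scattered. Joining calls of the same direction within 10 kb gave 697 separate higher loci and 355 lower ones. Besides THBS1 and SLC7A5, 1 run had 3 regions, at ALDH1A3 (3 of 3 tested, median 1.08), and 17 higher runs had 2 regions, among them CCND1, AMOTL2, ACTG1, IRS1, TGM2, STK3 and MYC. All 8 lower runs had 2 regions: GPR37L1, ZCCHC24, GAB2, EIF1, SOX9, IER2, ITGA9 and LIMD1. Within bins GPR37L1 and GAB2 kept both calls, SOX9 kept 0 and the others kept 1 each. Neighbouring tested regions under 1 kb apart had a Pearson's r of 0.42 between their fold changes centred within bins (7576 pairs), falling to 0.20 at 1 to 5 kb, 0.13 at 5 to 20 kb and 0.05 beyond 100 kb. Such neighbours share libraries and can share fragments.

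Outside these loci the highest fold changes came from regions of low signal. A region 104 kb upstream of F3, which encodes tissue factor, the initiator of blood clotting, had 1.60 ± 0.31 (adjusted p = 0.000142, DESeq2) at a signal of 60.4 in the authors' deposited table. BST1, an ectoenzyme gene, followed at 1.58 ± 0.27, TPM1, a tropomyosin gene, at 1.4999 ± 0.32, AMOTL2, an angiomotin family scaffold of the Hippo pathway, at 1.46 ± 0.32 and FAM20B, a kinase of proteoglycan synthesis, at 1.42 ± 0.26 in the authors' deposited table. The best supported were stronger regions with smaller changes. PAWR, a pro-apoptotic factor, had 0.75 ± 0.09 (adjusted p = 4.93e-11, DESeq2) in a region 143 kb away (chromosome 12, 79547102 to 79547603) in the authors' deposited table. One 68.7 kb from PPP2R3A, a subunit of a protein phosphatase, had 0.72 ± 0.09 (adjusted p = 8.85e-11, DESeq2) there. STIM2, a calcium sensor of the endoplasmic reticulum, had 0.86 ± 0.12, the receptor gene ROR1 0.995 ± 0.14, the talin gene TLN2 0.99 ± 0.15 and SUSD1, at a signal of 1178, 0.51 ± 0.08 in the authors' deposited table.

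On the lower side FOSB, an AP-1 subunit gene, had the largest fall, -1.47 ± 0.30 (adjusted p = 0.000622, DESeq2) at a signal of 73.2 in the authors' deposited table, at a distance of 9.26 kb. LINGO1, RGS1, the urate transporter gene SLC2A9 and KSR2, a scaffold of the RAF pathway, followed from -1.203 to -1.11 at signals from 56.8 to 97.3. The best supported were XPNPEP1 (-1.004 ± 0.13), LIMD1, a LIM-domain regulator of the Hippo pathway (-0.77 ± 0.11, adjusted p = 1.26e-08, DESeq2), SLC26A2, a sulfate transporter gene (-0.74 ± 0.11), ST6GALNAC3, a sialyltransferase gene (-0.74 ± 0.12), and SLCO4A1, a transporter gene with a signal of 1559 (-0.45 ± 0.07), in the authors' deposited table. LIMD1 was also called lower at 18 h against mock (-0.60, adjusted p = 0.001, DESeq2) in the authors' deposited table.

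Calls were unevenly spread over chromosomes. Over all tested regions 0.856% were called higher and 0.421% lower. Chromosome 13 had 39 higher calls (1.74% of its tested regions) and 4 lower ones (0.179%). Chromosome 15 had 42 higher (1.37%), 13 of them at THBS1, and 20 lower (0.651%). Chromosome 17 had 14 higher (0.351%) and 24 lower (0.601%), and chromosome 12 had 26 (0.591%) and 32 (0.728%). On chromosome 19 there were 10 higher (0.304%) and 6 lower (0.183%). After centring within bins these counts became 58 and 2 on chromosome 13, 33 and 7 on chromosome 17 and 57 and 9 on chromosome 12, so the excess of lower calls on 12 and 17 was not kept. The chromosome 13 calls lay in part at the far IRS2 regions (5) and at ANKRD10 (1.14 ± 0.18), GAS6, a ligand of AXL (1.10 ± 0.18), and the glypican genes GPC5 and GPC6 in the authors' deposited table.

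Gene lists were read over all tested regions named for their members and are described by counts alone. A region named for a gene can lie far from it, so a call at a gene does not place the change in that gene. The lists were chosen with earlier results of these data known. List counts within bins are to be read against 1.45% higher and 0.201% lower, the shares of all tested regions within bins. The YAP and TEAD pathway, which reads cell tension and contact, had 19 of 406 regions higher at 12 genes (4.68%) and 0 lower, against 0.856% and 0.421% of all tested regions, and its median was 0.01 against -0.06. By role, the scaffold AMOTL2 had 3 higher regions (1.46 ± 0.32, 0.86 ± 0.18 and 0.57 ± 0.11 at 22.6, 43.6 and 48.2 kb), the upstream regulators WWC1 and PTPN14 had 2 and 1, and the DNA-binding factor TEAD3 had 1 (0.43 ± 0.12) and the TEAD cofactor VGLL3 had 2 in the authors' deposited table. Among genes used as readouts of the pathway, F3, ANKRD1, AXL (0.98 ± 0.25), GADD45A (0.81 ± 0.18), NUAK2 (0.35 ± 0.09), CRIM1 (3 regions, 1.01 ± 0.24, 0.94 ± 0.18 and 0.61 ± 0.16) and ASAP1 (2 regions) had higher regions in the authors' deposited table. Of its 24 start regions 1, that of ANKRD1, was called. LIMD1, named above as a regulator of the Hippo pathway, was not in this list. It had a run of 2 lower regions, 1 of them kept within bins, so the count of 0 lower depends on which genes were listed.

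**Figure D4:**
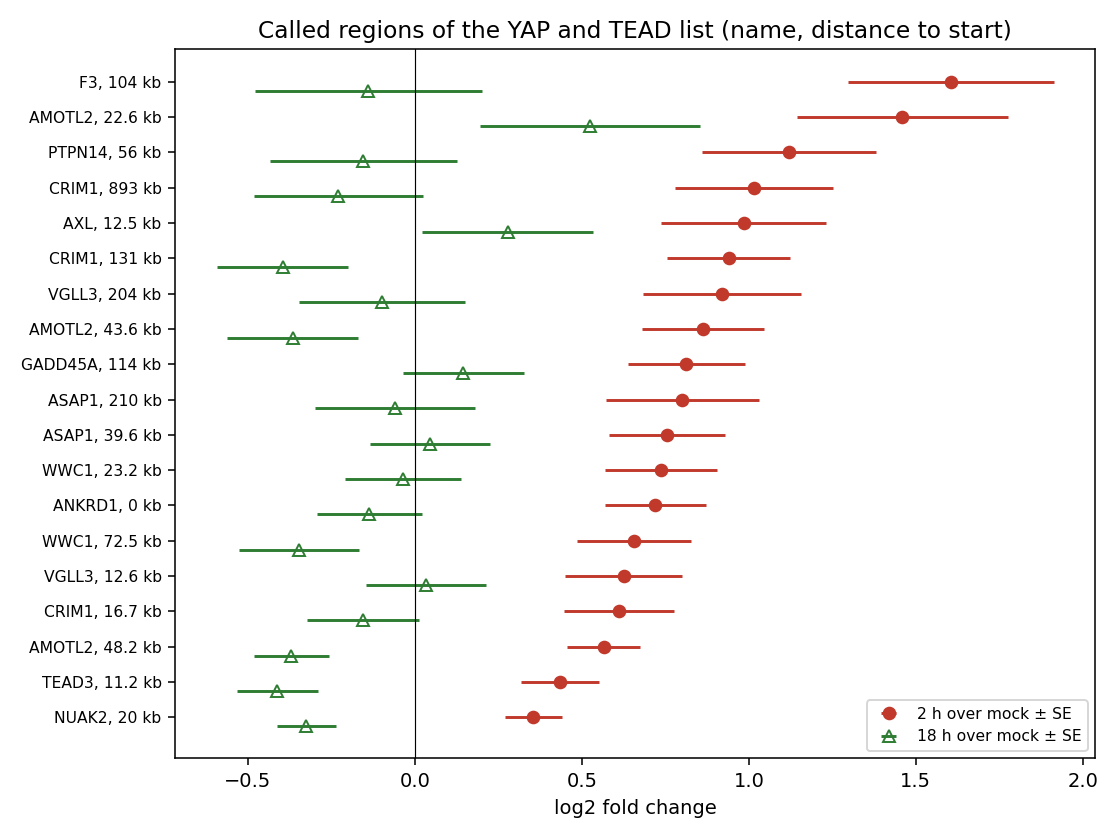
The 19 called regions of the YAP and TEAD list, named by gene and distance to the gene start, with log2 fold change ± SE for 2 h over mock (red circles) and 18 h over mock (green triangles). All circles lie above 0, from 0.35 to 1.60, and the triangles lie on both sides of 0; both comparisons share the mock libraries, and regions with little signal were not tested at 18 h.

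The lists of matricellular proteins, receptor kinases and TGF-beta signalling, which hold adaptors and transducers as well as secreted and surface proteins, were also above the background of 0.856% higher. Thrombospondins and matricellular proteins had 16 of 161 higher (9.94%) and 0 lower, 13 of them at THBS1 and 1 each at THBS2 (0.88 ± 0.19), POSTN (1.25 ± 0.30) and TNC (0.78 ± 0.19) in the authors' deposited table. As 45 of the 161 regions were named for THBS1, this higher share is largely that of 1 gene. Receptor tyrosine kinases and ligands had 14 of 463 higher (3.02%) at 9 genes and 0 lower. They were the ligands GAS6, FGF2 (0.65 ± 0.11) and NRG1, the receptors KIT (0.78 ± 0.17), ERBB4 (0.73 ± 0.17), AXL and KDR, and the adaptors IRS1 (2 regions) and IRS2 (5 regions) in the authors' deposited table. TGF-beta and BMP signalling had 12 of 463 higher (2.59%) and 1 lower (0.216%). Among the higher ones, the ligand TGFB2 had 3 regions (0.74 ± 0.13, 0.44 ± 0.09 and 1.33 ± 0.27), the activin subunit gene INHBA 3 (1.27 ± 0.23, 0.93 ± 0.18 and 0.80 ± 0.16), the co-receptor TGFBR3 1, the transducers SMAD2 and SMAD3 1 each, the inhibitor SMAD6 1 (0.99 ± 0.22) and the target ID2 1 in the authors' deposited table. The lower one was BMP4, and its call was lost within bins.

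Cell-cell junctions and cadherins had 11 of 435 higher (2.53%) at 10 genes and 0 lower, against 0.856% and 0.421% of all tested regions. Among the 11 were the cadherins CDH4 (0.94 ± 0.16), CDH5 and CDH13, the large cadherins FAT3 (1.14 ± 0.21) and FAT4 (2 regions), the nectins NECTIN1 and NECTIN3, the tight junction scaffold TJP1 (0.87 ± 0.18) and GJA5 in the authors' deposited table. Proteoglycans and pattern receptors had 6 of 211 higher (2.84%), at GPC5 (3 regions), GPC6 (0.89 ± 0.14 and 0.54 ± 0.14) and AGRN (0.81 ± 0.19), and 1 lower (0.474%), at the hyaluronan receptor gene CD44 (-0.75 ± 0.18), in the authors' deposited table. Amino acid transporters had 12 of 240 higher (5%), 11 at SLC7A5 and 1 at the glutamate transporter gene SLC1A3 (0.63 ± 0.17), and 2 lower (0.833%), SLC7A5 again and SLC38A1 (-0.86 ± 0.18), in the authors' deposited table. As 24 of the 240 regions were named for SLC7A5, the higher share is largely that of 1 gene. The ATF4 and amino acid response list, which holds regulators of such transporters, had 0 of 132 higher and 2 lower (1.52%), CEBPB (-0.59 ± 0.11) and PSAT1 (-0.72 ± 0.17) in the authors' deposited table. Within bins it had 2 higher and 2 lower.

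**Figure D5:**
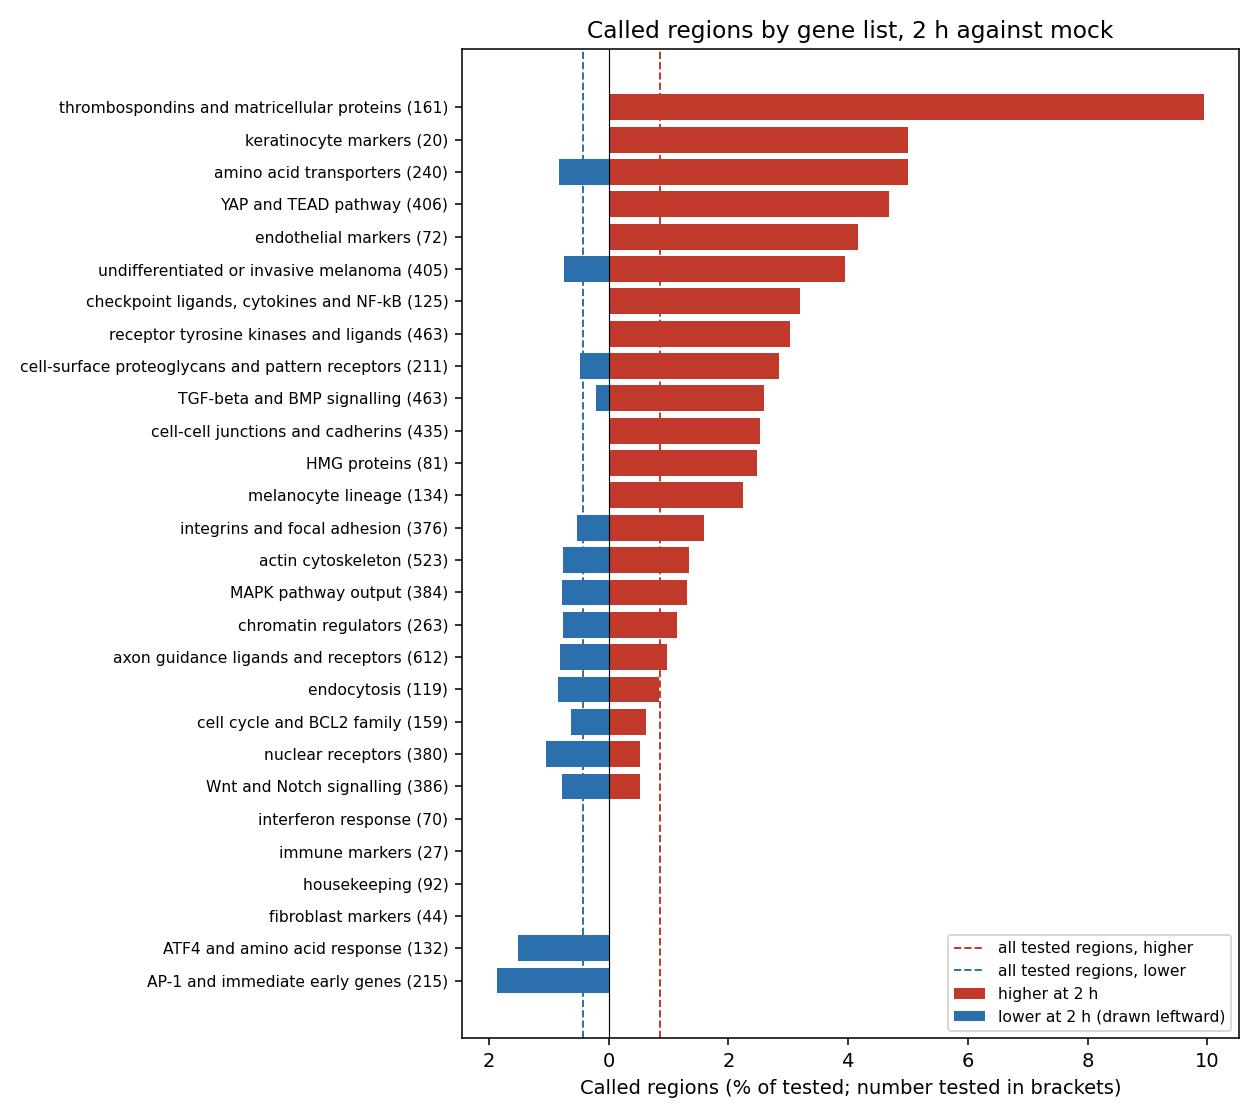
Percent of tested regions called higher (red, rightward) and lower (blue, leftward) for each of 28 gene lists, with the number of tested regions in brackets; dashed lines mark the shares over all tested regions (0.856% and 0.421%). The lists of AP-1 and ATF4 genes have lower calls alone as deposited, but 1 and 2 higher calls as well after centring within bins, and lists with few regions reach high shares with 1 call.

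The axon guidance list had 6 of 612 higher (0.98%) and 5 lower (0.817%), against 0.856% and 0.421% of all tested regions. The 6 were at semaphorin, plexin, slit and netrin genes (SEMA3A 1.24 ± 0.21, PLXNA2 0.86 ± 0.15 and 0.36 ± 0.09, PLXND1 0.53 ± 0.10, SLIT3 0.53 ± 0.13, NTN4 0.68 ± 0.17). The 5 lower ones were at ephrin receptor genes (EPHA7 -0.84 ± 0.17, EPHA3 -0.75 ± 0.18, EPHA5 -0.64 ± 0.17, EPHA4 -0.96 ± 0.28) and at another semaphorin gene, SEMA6A (-0.97 ± 0.23), in the authors' deposited table. These 5 kept the call within bins, where the list had 10 higher and 5 lower.

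AP-1 and immediate early genes, which respond within minutes to many signals, had 0 of 215 higher and 4 lower (1.86%): FOSB, IER2 at 12.3 and 13.3 kb (-0.34 ± 0.09 and -0.39 ± 0.09) and KLF4 (-0.38 ± 0.11) in the authors' deposited table. Within bins FOSB and the farther IER2 region were kept, and 1 region of the list was higher. MAPK pathway output had 5 of 384 higher (1.30%) and 3 lower (0.781%). The higher ones were at CCND1 (1.16 ± 0.26, 0.72 ± 0.17 and 0.65 ± 0.19), the phosphatase gene DUSP5 and the inhibitor gene SPRY2, and the lower ones at the inhibitors SPRED1 and SPRED2 (-0.47 ± 0.10 and -0.58 ± 0.13) and DUSP4, lost within bins, in the authors' deposited table. For chromatin regulators the counts were 3 higher and 2 lower of 263 (1.14% and 0.76%), for endocytosis 1 and 1 of 119 (0.84% each, the lower one, DNM1, lost within bins) and for the cell cycle and BCL2 family 1 and 1 of 159 (0.629% each), against 0.856% and 0.421% of all tested regions. The last pair was BCL2L1, which encodes a survival protein (0.53 ± 0.11), and MCL1, another survival gene of the family (-0.98 ± 0.28, signal 74.0), in the authors' deposited table.

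The actin cytoskeleton list had 7 of 523 regions higher (1.34%) and 4 lower (0.765%), against 0.856% and 0.421% of all tested regions as deposited. Within bins it had 14 and 3, against 1.45% and 0.201% of all tested regions. The higher ones were at ACTG1, a cytoplasmic actin gene (0.97 ± 0.20 and 1.38 ± 0.32), TPM1, the crosslinker genes ACTN4 (0.57 ± 0.16) and PALLD (0.61 ± 0.17), the myosin gene MYO9B (0.86 ± 0.17) and CDC42BPA, a kinase acting on myosin (1.28 ± 0.17), in the authors' deposited table. The lower ones were at the spectrin gene SPTBN1 (-0.93 ± 0.19), ARHGAP26 (-0.84 ± 0.19), the myosin gene MYO1E (-0.62 ± 0.16) and CDC42BPA again (-0.38 ± 0.11), the last lost within bins, in the authors' deposited table. Integrins and focal adhesion had 6 of 376 higher (1.60%) and 2 lower (0.532%). The higher ones were at TLN2, the integrin gene ITGB5 (0.74 ± 0.18), the adaptor gene LIMS1 (0.42 ± 0.12) and 3 regions of the tensin gene TNS3 (0.93 ± 0.27, 0.74 ± 0.19 and 0.89 ± 0.26), and both lower ones at the integrin gene ITGA9 (-0.53 ± 0.13 and -0.50 ± 0.14), the latter lost within bins, in the authors' deposited table.

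Nuclear receptors had 2 of 380 higher (0.526%) and 4 lower (1.05%), against 0.856% and 0.421% of all tested regions. Within bins the list had 6 higher and 1 lower. The shares over all tested regions moved the same way, to 1.45% and 0.201%. The thyroid hormone receptor gene THRB held both higher regions (1.08 ± 0.19 and 0.45 ± 0.12) and 1 of the lower ones (-0.82 ± 0.17) in the authors' deposited table. The others were NR2F6, PPARG (-0.55 ± 0.14) and NR2F2 (-0.54 ± 0.14), which lost the call within bins. Wnt and Notch signalling had 2 of 386 higher (0.518%), at the receptor genes FZD2 (0.57 ± 0.11) and NOTCH1 (0.73 ± 0.20), and 3 lower (0.777%), at the corepressor gene TBL1XR1 (-0.85 ± 0.17 and -0.47 ± 0.12) and the Notch target HEY1 (-0.42 ± 0.11), in the authors' deposited table. The weaker TBL1XR1 region and HEY1 were lost within bins. There the list had 5 higher and 1 lower, beside the same 1.45% and 0.201% of all tested regions. Among chromatin regulators the methyltransferase gene KMT2C had 1 region of each direction (0.70 ± 0.15 and -0.56 ± 0.11) in the authors' deposited table.

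Against the background of 0.856% higher, the melanocyte lineage had 3 of 134 (2.24%) higher, at TRPM1 (0.88 ± 0.16), TFAP2A and KIT, and the list for the invasive, undifferentiated state had 16 of 405 (3.95%) higher, 13 of them at THBS1, and 3 lower in the authors' deposited table, and within bins 24 higher and 1 lower. Checkpoint ligands, cytokines and NF-kB genes had 4 of 125 (3.20%) higher (PDCD1LG2, CSF2, LIF and NFKBIZ). The interferon response had 0 of 70 in either direction (DESeq2), with 2 of 19 start regions at an unadjusted p under 0.05. Keratinocyte markers had 1 of 20 higher, FLG, endothelial markers 3 of 72 (CDH5, TEK and KDR), fibroblast markers 0 of 44, immune markers 0 of 27 and housekeeping genes 0 of 92. Of the start regions of these last 3 lists, 0, 0 and 1 had an unadjusted p under 0.05 (DESeq2). The part of other cell types in these values was not tested.

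The gene of the added protein was itself not called. HMGA1 had 5 tested regions, with -0.26 ± 0.18 (adjusted p = 0.704, DESeq2) at its start and 0.08 ± 0.28, -0.12 ± 0.09, -0.17 ± 0.14 and -0.03 ± 0.22 at 1.1, 7.49, 12.4 and 40.2 kb in the authors' deposited table. The HMG list as a whole had 2 of 81 regions higher (2.47%) and 0 lower, against 0.856% and 0.421% of all tested regions. The higher ones were 1 at HMGB2 (0.97 ± 0.22, 11 kb away) and 1 at HMGN4 (0.48 ± 0.13), in the authors' deposited table. Their start regions stood at -0.03 ± 0.08 and 0.02 ± 0.10 there. None of the tested regions of HMGA2 was called.

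The 18 h tables place the early calls beside a later time, but they share the mock or the 2 h libraries with this comparison, so the values are given side by side. In the comparison of 18 h with mock, 3 of 55341 tested regions were called higher (0.00542%) and 64 lower (0.116%). In that of 18 h with 2 h, 538 of 108134 were called higher (0.498%) and 3220 lower (2.98%), together 3.48%. Of the 737 regions that rose at 2 h, 593 were tested at 18 h against mock. There their median was -0.14, with 1 called higher and 3 lower, and against 2 h the 737 had a median of -0.88 with 679 called lower. Of the 363 that fell at 2 h, 346 were tested at 18 h against mock, with a median of -0.15 and 7 called lower, and against 2 h their median was 0.38 with 140 called higher. In the THBS1 block, 10 of the 13 regions were tested at 18 h against mock, with a median of 0.08. A few named regions had similar values at both times, singled out after these were seen: FOSB (-1.47 at 2 h and -1.75 at 18 h), MCL1 (-0.98 and -1.25) and STX8 (1.38 and 1.32) in the authors' deposited table. All 3 had too little signal to be tested at 18 h against mock.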

How the data were processed

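ATAC-seq of A375 cells was deposited as 3 tables of pairwise comparisons. Per the submitters' processing notes, reads were demultiplexed with bcl2fastq 2.17, the genome build was hg38 and the authors used DESeq2; the aligner, peak caller and read counter are not given in the sources used here. Per the file headers, each row holds the deposited mean signal (read counts divided by size factors), the authors' log2 fold change with its SE, the Wald statistic as a deposited score, and the authors' p-value with its adjusted p. Mean signal was equal for all 226377 regions shared by both tables against mock. 0 columns hold single libraries, so no model was fitted and the depth per library is unknown. Members, lists and tests were chosen with earlier results of these data known.

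Of 233332 rows for 2 h against mock, 6526 repeat rows of a region were left out. Each region kept the name with the nearest start, or the first by alphabet where distances were equal. The authors wrote an adjusted p of 1 below a mean signal of 56.2, and these 140669 regions were treated as not tested. Centred values were adjusted by the Benjamini-Hochberg method over all tested regions, with code tested on simulated data. Named regions were those of genes with at least 4 calls, the 15 largest and the 15 best supported per direction, all calls within 1 kb of a start, the runs with most calls, up to 6 called members per list, the best per chromosome, and the HMG genes; not all of these are printed, and a few are not reported here. Genes are named as the deposited rows name them. Distances follow those names, and gene spans, strands and the 250-base windows come from RefSeq (GRCh38.p14), with 18135 of 18768 names matched to a position. Strands came with the windows and were lacking for some matched names. Region coordinates are as deposited, and whether they count from 0 or 1 was not stated. Python 3.11.15, numpy 2.4.6, pandas 2.3.3, scipy 1.17.1 and matplotlib 3.10.9 were used. Alternatives were other thresholds, other limits on mean signal, 2 centrings, all rows, a fold limit, other gaps for runs and leaving out THBS1 and SLC7A5.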

Additional observations from a re-analysis of the deposited data

Results flagged for a closer look

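The effect at 2 h differed from that at 18 h by the authors' own test of 18 h against 2 h (DESeq2, adjusted p under 0.05), which shares the 2 h libraries with the calls and the same fit. This held for 679 of the 737 regions that rose and for 140 of the 363 that fell. How much of this comes from the shared libraries, or from picking regions by their 2 h value, was not tested. Within the groups described above it held for 13 of 13 THBS1 regions, 11 of 11 higher SLC7A5 regions and 17 of 19 regions of the YAP and TEAD list.

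Among regions within 1 kb of a gene start, the log2 fold change of 18 h against 2 h in the authors' deposited table was -1.28 for C18orf63, -1.27 for GJA5, -1.16 for ANXA3, -1.08 for DDAH1, -1.01 for FAM186A, -0.86 for ANKRD1, -0.84 for PDCD1LG2, -0.75 for ACSM6 and -0.61 for PCED1B, all of which had risen at 2 h. It was 0.72 for KCND1, 0.61 for SLC7A5, 0.55 for SHROOM4 and 0.52 for FXYD3, all of which had fallen.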

How the results depend on the processing

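As reported, 737 regions were higher and 363 lower. An adjusted p under 0.01 gave 377 and 129, and one under 0.1 gave 684 lower. Without a limit on mean signal 206 were lower, and with a fold of at least 1.5 there were 156. Centring on the median gave 1179 and 198, and centring within bins of mean signal 1249 and 173; as these 2 settings only shift the values, the added higher and lost lower calls follow from the shift. Within bins, calls within 1 kb of a start became 16 higher and 5 lower, those beyond 100 kb 508 and 70, and those of all lists 200 and 23. The YAP and TEAD list then had 30 higher and 0 lower regions. Runs of 2 or more calls numbered 8 higher and 5 lower with a gap of 2 kb, and 43 and 16 with one of 50 kb. The counts with a mean signal of at least 100, over every row or without THBS1 and SLC7A5 stayed within 1.5 times those reported. No named region changed direction, all 195 named higher calls held under both centrings, and 20 (median) or 25 (bins) of 90 named lower calls lost theirs. Both centrings raised most values, so a higher call could hardly be lost, and its being kept is no sign of strength. No paired analysis was possible because the tables hold no values per library, and for the same reason no replicate was left out.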

Other observations

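At the 9925 promoter windows over tested regions the log2 fold change was above 0 in 8.61% to 13.4% of windows in each of 5 equal groups by A and T content, whereas 37.8% of all tested regions lay above 0, and the quartiles of the groups lay between -0.19 and -0.05 in the authors' deposited table. After centring within bins of mean signal the 5 medians lay between -0.04 and -0.01.

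Several regions over an annotated promoter window were named for a distant start in the authors' deposited table. The regions over the LIMA1, NPLOC4 and RAPGEF4 windows were placed 81.1, 70.2 and 124 kb from the named start. The region over the RGS8 window was named for another gene, 37.2 kb away. Counts of calls near gene starts depend on which starts are used.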
